A study of Rattus norvegicus with 8 samples.

Results

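The 10 genes described here are the skeletal muscle genes Acta1, Ckm, Mb, Myh1, Myh2, Myh4, Tnnt3, Tnni2, Mylpf, and Actn3, measured in RNA-Seq libraries of rat thyroid. Members were taken by gene symbol, and for each gene the transcript with the highest count summed over the 8 libraries was used. Of the 10 symbols, 9 were found among the 30560 gene identifiers of the count table. Myh1 had no row under its symbol, so its level was not analysed here and it enters only the description of promoters. The genes were proposed as RNA of the strap muscles in front of the gland. Their source was not tested, and they are called muscle genes below.

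The libraries came from male Wistar rats whose neck was X-irradiated at 4 Gy through a gap in lead plates, or who were sham-irradiated, at 1 week or 4 months of age. Thyroid RNA was taken 8 weeks later. The 4 groups were 1w0Gy (sham at 1 week), 1w4Gy (4 Gy at 1 week), 4m0Gy (sham at 4 months), and 4m4Gy (4 Gy at 4 months), with 2 libraries in each group. Each library was made from a different rat, and RNAs of higher integrity were picked for sequencing in each group. The age groups therefore also differed in age at sampling, and age at irradiation and age at sampling cannot be told apart.

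The sarcomere is the contractile unit of striated muscle, in which myosin filaments pull on actin filaments. Calcium binding to the troponin complex permits the pull, and creatine kinase and glycolysis regenerate the ATP it uses. Fast, glycolytic fibres express their own isoforms of many of these proteins, and the type of myosin heavy chain defines the fibre type. The thyroid lies beneath the strap muscles of the neck, and skeletal muscle fibres are not part of its follicles.

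Counts on genes ranged from 14835400 to 18138102 per library, a 1.22-fold range. Tg, the thyroglobulin gene that defines thyroid follicular cells, took 18.5% to 21.3% of the counts. The 9 muscle genes together had 143 to 1797 counts in a library. In bulk tissue, fewer muscle fibres and less RNA per fibre cannot be told apart.

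Promoters of 3 muscle genes that varied widely between libraries are shown as the 250 bases before the transcription start, from the RefSeq promoter table of build GRCr8. Acta1 and Ckm stand for the actin filament and the energy supply, and Myh4 for the myosin filament. Capitals mark matches, on either strand, to an E-box (CANNTG, the site of myogenic helix-loop-helix factors), a MEF2 site, a CArG box (the site of serum response factor), or the letters TATAAA of a TATA box.
Acta1 chr19:68784195-68784444, minus strand: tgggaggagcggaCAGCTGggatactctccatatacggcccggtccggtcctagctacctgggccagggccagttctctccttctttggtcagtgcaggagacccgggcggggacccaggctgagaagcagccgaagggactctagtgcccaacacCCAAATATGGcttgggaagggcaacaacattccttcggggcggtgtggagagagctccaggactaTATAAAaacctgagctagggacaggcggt
Ckm chr1:88189211-88189460, plus strand: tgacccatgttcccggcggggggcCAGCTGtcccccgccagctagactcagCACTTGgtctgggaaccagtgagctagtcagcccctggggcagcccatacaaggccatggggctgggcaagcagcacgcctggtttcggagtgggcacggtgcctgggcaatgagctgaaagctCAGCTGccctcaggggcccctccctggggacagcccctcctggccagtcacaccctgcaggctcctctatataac
Myh4 chr10:52421898-52422147, plus strand: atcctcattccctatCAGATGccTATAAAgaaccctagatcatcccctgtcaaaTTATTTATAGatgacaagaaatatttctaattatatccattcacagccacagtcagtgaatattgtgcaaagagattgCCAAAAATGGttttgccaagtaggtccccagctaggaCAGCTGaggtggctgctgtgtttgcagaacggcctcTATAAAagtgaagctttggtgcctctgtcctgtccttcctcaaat
The promoter table held 8 of the 10 genes, Tnnt3 and Mylpf being those not matched. An E-box stood in 5 of these 8 promoters, against 65.5% of the 33469 promoters in the table. A CArG box stood in 2 of 8, Acta1 and Myh4, against 1.497% of all promoters. A MEF2 site stood in 2 of 8, Myh1 and Myh4, against 2.96%. The letters TATAAA stood in 6 of 8 against 12.9%, and in Myh1 and Myh4 one of these matches lay inside the MEF2 site on the other strand. These matches describe the letters of the promoters and were not linked to any binding data.

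Levels are given as CPM, the counts of a gene per 1000000 counts of its library, with library size corrected for composition by TMM in edgeR. The myosin heavy chain Myh4, the motor of the fastest (type IIB) fibres, had 1.30 and 25.3 CPM in 1w0Gy and 10.4 and 0.742 CPM in 1w4Gy, in the order of replicate 1 and replicate 2. It had 27.1 and 3.17 CPM in 4m0Gy and 1.99 and 19.6 CPM in 4m4Gy. Each group thus held a library with a high level and a library with a low level, and the ranges of the groups overlapped. The highest of the 8 values was 36.5 times the lowest.

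Myh2, the myosin heavy chain of fast oxidative (type IIA) fibres, was the least abundant of the 9 genes. At 1 week its counts were 2 and 5 without irradiation (1w0Gy) and 21 and 2 with it (1w4Gy). At 4 months they were 6 and 2 (4m0Gy) and 2 and 7 (4m4Gy). It did not pass the filter on low counts, so 8 of the 9 genes were tested. Mylpf, the fast regulatory myosin light chain, had 1.08 and 5.62 CPM in 1w0Gy, 2.98 and 0.309 CPM in 1w4Gy, 2.52 and 0.469 CPM in 4m0Gy, and 0.796 and 2.65 CPM in 4m4Gy. Replicate 2 was again the higher library in 1w0Gy and 4m4Gy and the lower one in 1w4Gy and 4m0Gy.

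Acta1, the actin of the thin filament in skeletal muscle, had 4.69 and 33.9 CPM in 1w0Gy, 18.9 and 1.98 CPM in 1w4Gy, 16.5 and 3.81 CPM in 4m0Gy, and 5.44 and 15.4 CPM in 4m4Gy. The lowest and the highest values of Acta1 lay 17.2-fold apart. Actn3, the alpha-actinin that anchors thin filaments at the Z-disc of fast fibres, had 1.46 and 2.78 CPM in 1w0Gy, 2.80 and 1.24 CPM in 1w4Gy, 2.84 and 1.29 CPM in 4m0Gy, and 1.86 and 3.82 CPM in 4m4Gy. Its 3.09-fold range was the narrowest of the 9 genes.

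Tnnt3, the fast troponin T that ties the troponin complex to tropomyosin, had 3.89 and 10.9 CPM in 1w0Gy, 6.65 and 2.97 CPM in 1w4Gy, 5.23 and 1.94 CPM in 4m0Gy, and 2.39 and 6.09 CPM in 4m4Gy. Tnni2, the fast inhibitory troponin, had 0.809 and 3.13 CPM in 1w0Gy, 2.49 and 0.433 CPM in 1w4Gy, 2.13 and 0.469 CPM in 4m0Gy, and 0.730 and 1.88 CPM in 4m4Gy. Both troponins kept the order of the replicates seen for Acta1 and Myh4, with ranges of 5.65-fold and 7.23-fold.

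Ckm, the muscle creatine kinase, had 1.46 and 12.7 CPM in 1w0Gy, 9.26 and 0.680 CPM in 1w4Gy, 8.53 and 0.645 CPM in 4m0Gy, and 2.59 and 8.68 CPM in 4m4Gy. Mb, myoglobin, the oxygen store of muscle, had 1.30 and 9.38 CPM in 1w0Gy, 2.80 and 0.371 CPM in 1w4Gy, 5.56 and 0.293 CPM in 4m0Gy, and 0.531 and 3.43 CPM in 4m4Gy. Mb spanned 32.0-fold and Ckm 19.7-fold over the 8 libraries.

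**Figure D1:**
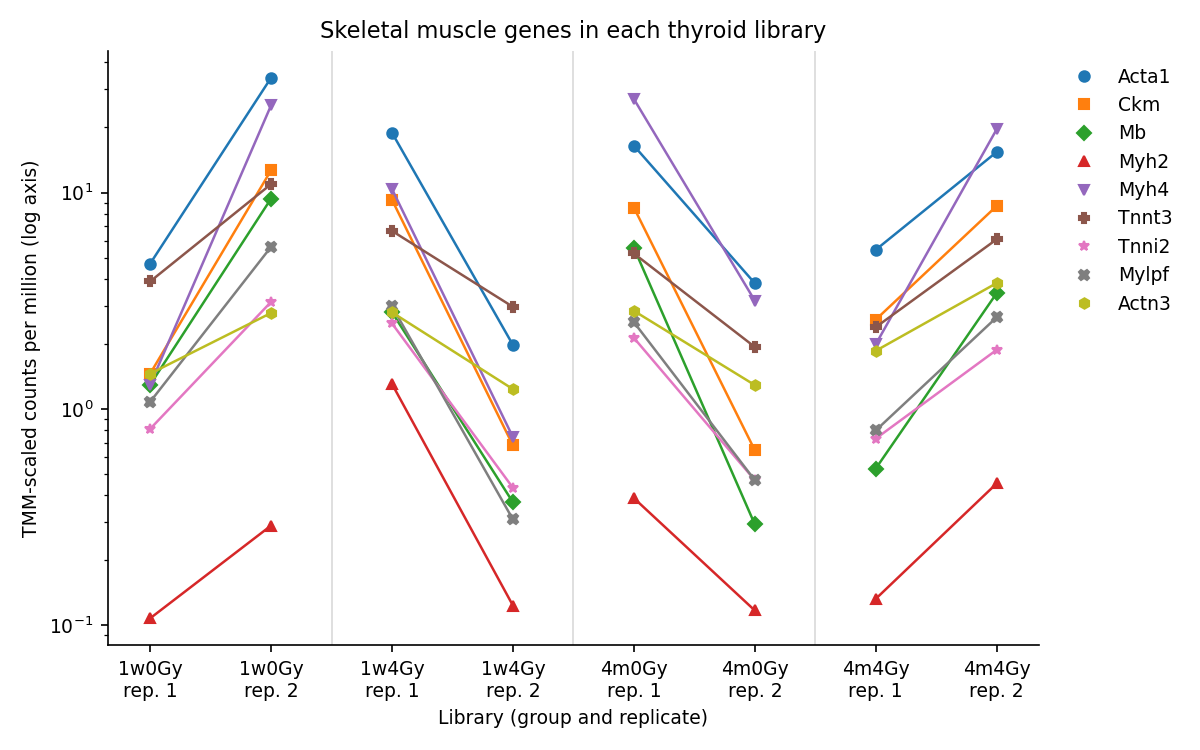
Level of each of the 9 muscle genes in the 8 libraries, in TMM-scaled CPM on a log axis, with a line joining the 2 replicates of a group. Each point is a library, so there is no error bar. Every gene is higher in replicate 2 of 1w0Gy and 4m4Gy and lower in replicate 2 of 1w4Gy and 4m0Gy, and summed CPM runs from 8.84 to 104.

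Summed over the 9 genes, the level was 16.1 and 104 CPM in 1w0Gy, 57.6 and 8.84 CPM in 1w4Gy, 70.7 and 12.2 CPM in 4m0Gy, and 16.5 and 62.0 CPM in 4m4Gy. The highest library, 1w0Gy replicate 2, stood 11.8-fold above the lowest, 1w4Gy replicate 2. It was the highest library for 6 of the 9 genes, and 1w4Gy replicate 2 was the lowest for 5.

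Levels were compared between genes per kilobase of transcript. In that unit the mean over the 8 libraries fell in the order Acta1 (8.66 CPM per kb), Tnnt3 (4.64), Ckm (3.85), Mylpf (2.98), Myh4 (1.86), Tnni2 (1.11), Actn3 (0.788), Mb (0.491), and Myh2 (0.0604). The neighbours Myh4 and Tnni2 could not be ordered, since Myh4 was the higher in 4 of 8 libraries. Tnnt3 exceeded Ckm, and Tnni2 exceeded Actn3, in 5 of 8 libraries. Mb exceeded Myh2 in 8 of 8. The place of Mb depended on the transcript, since the chosen row of 6027 bases had nearly the same counts as a row of 1082 bases.

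All 9 genes were higher in replicate 2 than in replicate 1 in 1w0Gy and 4m4Gy, and lower in replicate 2 in 1w4Gy and 4m0Gy. Of the 15684 genes that passed the filter, 6.8% had this order in all 4 groups. With a difference of at least 2-fold in each group, 7 of the 9 muscle genes kept the order, against 15 genes or 0.0956% of those that passed. The order, and the direction in each group used below, were read from the muscle genes themselves, which varied together. These shares are therefore a description. Of the 15 genes, 7 were these muscle genes and 6 were in the other muscle lists described below. The remaining pair, singled out after the values were seen, was AABR07005775.1 and an unnamed protein-coding gene, ENSRNOG00000006471, at 0.108 to 2.98 CPM.

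In 1w0Gy, replicate 2 was higher by at least 2-fold for 7 of the 9 muscle genes, against 0.816% of all genes that passed the filter. The median log2 difference of the muscle genes was 2.26, and that of all genes was close to 0. In 1w4Gy, replicate 2 was lower by at least 2-fold for 9 of 9 muscle genes, against 2.19% of all genes, with a median log2 difference of -2.57. In 4m0Gy, replicate 2 was lower by at least 2-fold for 9 of 9, against 1% of all genes, with a median of -2.08. In 4m4Gy, replicate 2 was higher by at least 2-fold for 8 of 9, against 0.912% of all genes, with a median of 1.48. Myh4 had the largest log2 difference in 1w0Gy (4.17), 1w4Gy (-3.60), and 4m4Gy (3.22), and Mb in 4m0Gy (-3.77).

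**Figure D2:**
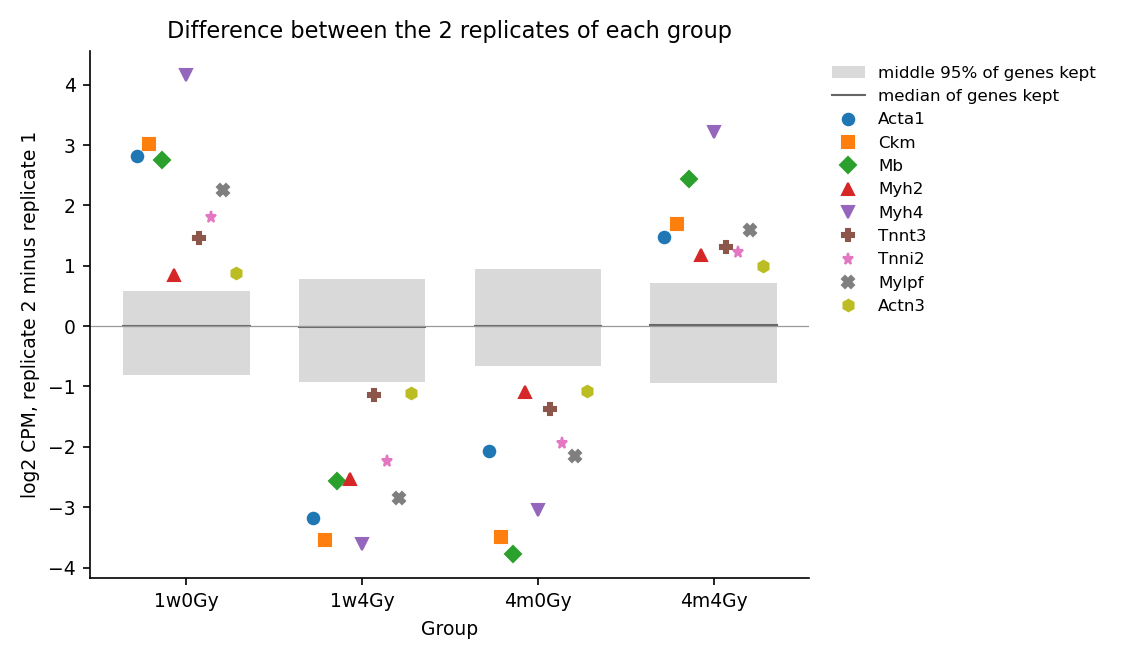
Difference in log2 CPM between replicate 2 and replicate 1 of each group, with 1 symbol per muscle gene. The grey band holds the middle 95% of the 15684 genes that passed the filter and the dark line is their median. All 9 genes lie outside the band in each group, on the upper side in 1w0Gy and 4m4Gy and on the lower side in 1w4Gy and 4m0Gy.

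The within-group SD of log2 CPM, pooled over the 4 groups, had a median of 1.68 over the 8 muscle genes that passed the filter and of 0.14 over all genes. By this SD, Myh4 ranked 2, Ckm 5, Mb 8, Acta1 12, and Mylpf 19 among the 15684 genes. Tnni2 ranked 49 and Tnnt3 177, and Actn3 stood after them. Thus 6 of the 8 genes stood among the 100 genes that varied most between replicates, and 8 of 8 among the first 500. The genes were not matched for level, and counting noise adds to this SD at low counts. The lowest library had 5 counts of Mb and of Mylpf, 7 of Tnni2, 11 of Ckm, and 12 of Myh4.

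The muscle genes did not vary in a fixed proportion to each other. As a share of the counts on Actn3 and Acta1 together, Actn3 took 23.7% and 7.57% in the 1w0Gy libraries and 12.9% and 38.5% in the 1w4Gy libraries. It took 14.7% and 25.3% in the 4m0Gy libraries and 25.5% and 19.9% in the 4m4Gy libraries. The share was higher, in each of the 4 groups, in the replicate with the lower summed level. Acta1 is part of both the share and that sum, so this agreement is partly built in. The exact 95% binomial intervals of the extremes, 5.63% to 9.91% in 1w0Gy replicate 2 and 25.3% to 53.0% in 1w4Gy replicate 2, did not overlap. These intervals cover counting error only, since reads without molecular identifiers are not independent molecules.

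The ratio of the myosins differed between libraries too. Myh2 took 11.2% of the counts on Myh2 and Myh4 in 1w4Gy replicate 1 (exact 95% interval 7.05% to 16.6%). It took 1.13% (0.368% to 2.62%) in 1w0Gy replicate 2, 1.41% (0.520% to 3.05%) in 4m0Gy replicate 1, and 2.26% (0.913% to 4.597%) in 4m4Gy replicate 2. The interval of 1w4Gy replicate 1 thus lay above those of the other 3 libraries with more than 100 counts on these genes. This order holds for the chosen row of Myh4. Another row, ENSRNOT00000045718, had 62 counts in 1w4Gy replicate 1 and 1 in 4m0Gy replicate 1, and was not used for this share. In the other 4 libraries, with 14 to 56 counts, the intervals were too wide for an order.

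Mb took 47.1% and 42.5% of the counts on Mb and Ckm in the sham-irradiated libraries at 1 week (1w0Gy) and 39.4% and 31.3% in those at 4 months (4m0Gy). In the irradiated libraries it took 23.2% and 35.3% at 1 week (1w4Gy) and 17.02% and 28.3% at 4 months (4m4Gy). Within each age both sham-irradiated libraries stood above both irradiated ones, and across the ages they overlapped, since 1w4Gy replicate 2 stood above 4m0Gy replicate 2. With 2 libraries in a group, a split in the level of a single gene is common within an age. In level, and in either direction, the groups did not overlap for 35.4% of all genes at 1 week and for 39.4% at 4 months. How often a ratio of 2 genes splits the same way at both ages was not computed. The share of Mb was not tested, and it rests on only 17 counts in 1w4Gy replicate 2 (exact 95% interval 14.2% to 61.7%) and 16 in 4m0Gy replicate 2 (11.02% to 58.7%). Myh4 took 21.6% to 45.4% of the counts on Myh4 and Acta1 in 6 libraries, and 62.2% and 56.0% in 4m0Gy replicate 1 and 4m4Gy replicate 2.

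Irradiation at 1 week was compared between 1w4Gy and 1w0Gy with edgeR's quasi-likelihood test over all genes. None of the 8 tested muscle genes was called at an adjusted p under 0.05 with a fold change above 1.5 or under 0.5, and 0.00651% of the 15359 tested genes were. None had an unadjusted p under 0.05, against 5.68% of all genes. DESeq2 gave an adjusted p for 4 of the 8, those of Acta1, Ckm, Myh4, and Tnnt3, and called none of these. The log2 fold changes ran from -1.74 (SE 1.39, adjusted p = 0.909) for Mb to -0.07 (SE 0.47, adjusted p = 0.995) for Actn3, with 8 of 8 below 0. Their median was -0.75, and that of all genes was close to 0. The 2 groups overlapped for all 9 muscle genes, and did not overlap for 35.4% of genes.

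The direction of this median depended on a single library. Without 1w0Gy replicate 2, the library with the highest muscle level, it was 0.84. It was -1.35 without 1w0Gy replicate 1, -3.31 without 1w4Gy replicate 1, and -0.02 without 1w4Gy replicate 2. In these fits the remaining library of the reduced group is assumed to vary like the others. The filter was applied anew in each fit. Without 1w0Gy replicate 1, 1w0Gy replicate 2, or 1w4Gy replicate 2, Myh2 passed it too, and the median covers 9 genes. These medians therefore reflect a change of gene set as well as the library left out.

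Irradiation at 4 months was compared between 4m4Gy and 4m0Gy in the same way. None of the 8 tested muscle genes was called, against 0.0197% of 15253 genes, and none had an unadjusted p under 0.05, against 8.39%. DESeq2 gave no adjusted p for any of the 8, so it could not call them. The log2 fold changes ran from -0.54 (SE 1.85) for Mb to 0.47 (SE 0.49, adjusted p = 0.855) for Actn3, with a median of 0.14 and 6 of 8 above 0. The 2 groups overlapped for 9 of 9 genes and did not overlap for 39.4% of all genes. The median was -0.64 without 4m0Gy replicate 2 and -0.85 without 4m4Gy replicate 2, and 1.61 without 4m0Gy replicate 1 and 0.69 without 4m4Gy replicate 1.

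The difference between the responses at the 2 ages was tested as an interaction over all 8 libraries. By edgeR none of the 8 muscle genes was called and the share of all genes called was 0%. None of the 8 had an unadjusted p under 0.05, against 9.12% of all genes. DESeq2 called none of the 4 genes for which it gave an adjusted p, which were again Acta1, Ckm, Myh4, and Tnnt3. Their log2 values ran from 0.45 (SE 1.56) for Tnni2 to 1.25 (SE 1.97, adjusted p = 0.901) for Mylpf, with a median of 0.85. Over the muscle genes that passed the filter in each fit, the median was -0.83 without 1w0Gy replicate 2. It was -0.31 without 4m4Gy replicate 2 and 3.31 without 1w4Gy replicate 1.

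Over both ages, the 4 irradiated libraries were compared with the 4 sham-irradiated ones. By edgeR none of the 8 muscle genes was called, against 0.0128% of 15684 genes. None had an unadjusted p under 0.05, against 3.89%, and DESeq2 called none of the same 4 genes, the only ones with an adjusted p. The lowest log2 fold change was that of Mb at -1.16 (SE 1.17, adjusted p = 0.999). It ran from -1.92 without 4m4Gy replicate 2 to -0.24 without 1w0Gy replicate 2. The median of the 8 genes was -0.32. Over the muscle genes that passed the filter in each fit, it was 0.37 without 1w0Gy replicate 2 and 0.08 without 1w4Gy replicate 2. No muscle gene had groups that did not overlap, against 1.54% of genes.

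Between the ages, 4m libraries were compared with 1w libraries over both treatments. By edgeR none of the 8 muscle genes was called, while 4.27% of the 15684 genes were. None had an unadjusted p under 0.05, against 20.5%, and DESeq2, with an adjusted p for 8 of 8, called none. Tnnt3 had the log2 fold change of smallest adjusted p, -0.63 (SE 0.54, adjusted p = 0.5995), and Myh4 the highest, 0.54 (SE 1.32). That of Tnnt3 ran from -1.03 without 4m4Gy replicate 2 to -0.15 without 1w0Gy replicate 2. The median of the 8 genes was -0.38 with 2 of 8 genes above 0. Over the muscle genes that passed the filter in each fit, it was 0.41 without 1w0Gy replicate 2 and 0.02 without 1w4Gy replicate 1. The age groups overlapped for 9 of 9 muscle genes and did not overlap for 12.8% of genes.

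**Figure D3:**
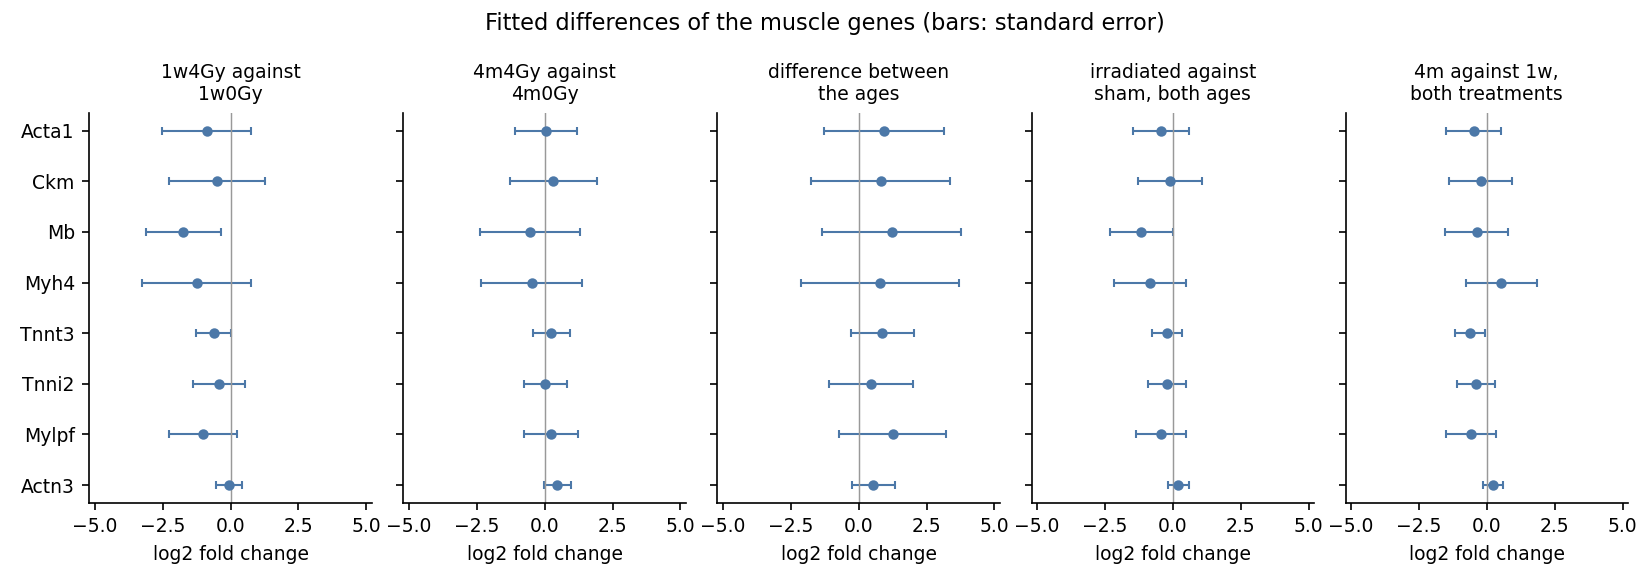
Log2 fold changes of the 8 tested muscle genes in the 5 comparisons, from edgeR, with bars of 1 standard error on each side. The third panel is the response at 4 months minus the response at 1 week. Mb reaches -1.74 in the first panel, no gene was called in any panel, and the bars of Acta1, Ckm, and Myh4 include 0 in every panel.

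Other genes of fast muscle were read from 4 lists, of which 40 genes were in the table and 33 passed the filter. Of the 33, 21 (63.6%) had the replicate order of the muscle genes in all 4 groups, against 6.8% of all genes that passed. None of these list genes was called for irradiation in either age group, over both ages, or in the interaction. Of all tested genes, 0.00651% were called at 1 week, 0.0197% at 4 months, 0.0128% over both ages, and 0% in the interaction. So few list genes cannot be told from those shares. The lists were chosen with results of these data known, and the shares are a description.

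Among the other fast-fibre sarcomere genes, 4 of 7 had that order. Myl1, the essential myosin light chain, ranged from 1.85 to 7.76 CPM, and Tnnc2, the calcium-binding troponin of fast fibres, from 0.0618 to 6.02 CPM. Mybpc2, fast myosin-binding protein C, had the same order on a much higher base of 43.0 to 65.9 CPM. Myoz1 (3.34 to 7.71 CPM) and Tmod4 (2.78 to 7.92 CPM) did not have it. The summed level of this list ranged 1.78-fold, against 11.8-fold for the 9 muscle genes. Mybpc2, with a range of 1.53-fold, made up most of that sum. Myl1 ranged 4.19-fold, and Tnnc2 97.4-fold from a lowest value of 1 count.

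Among the sarcomere scaffold and Z-disc genes, 8 of 13 had the order. The giant proteins Neb (6.04 to 20.3 CPM) and Ttn (4.26 to 15.8 CPM), which set the lengths of thin filaments and of the sarcomere, did not, while Myom2 of the M-band (3.05 to 5.73 CPM) did. Among genes of excitation-contraction coupling, 5 of 10 had it, among them the calcium release channel Ryr1 (0.880 to 3.07 CPM) and the calcium store protein Casq1 (0.645 to 2.49 CPM). Jph1 and Cacnb1, the most abundant genes of this list, did not. Cacnb1, a calcium channel subunit, was higher at 4 months by a log2 fold change of 0.74 (SE 0.16, adjusted p = 0.0253 in edgeR). It was the only gene of the 4 lists called in the age comparison, in which 4.27% of all genes were called.

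Among muscle energy enzymes, 7 of 10 had the order, including Pygm, muscle glycogen phosphorylase (4.70 to 10.4 CPM), and Eno3, muscle enolase (6.49 to 12.6 CPM). Pfkm (42.8 to 56.1 CPM) and Phka1 (19.8 to 25.3 CPM) did not have it.

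Genes of other muscle types were described beside these. None of the 9 slow-fibre genes had the order, and only 5 of them passed the filter. Of all genes that passed, 6.8% had it, and so few slow-fibre genes cannot be told from that share. The slow myosin heavy chain Myh7 had 0 to 2 counts in a library, and Myh7b, the most abundant of the list, had 20.3 to 35.9 CPM. Of 9 satellite cell and myogenic factor genes, 8 had a mean under 1 CPM, Pax7 had 1 count in all, and Mymx was at 0 in each of the 8 libraries. Mstn, the growth inhibitor of muscle, had 0.560 to 3.56 CPM without the order. The genes of smooth muscle, led by Acta2 (65.8 to 114 CPM) and Myh11 (70.6 to 120 CPM), had the order in 0 of 8, again too few genes to set against 6.8%. Their summed level ranged 1.62-fold. Acta1 and Acta2 both encode actins, and the likeness of their coding sequences was not measured here. How reads that fit several genes were counted is not given in the sources used here.

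Lists of the other cell types were read the same way, and their part in the levels of the muscle genes was not tested. Over the 17 lists outside fast muscle, 3 of the 83 entries that passed the filter had the order, against 6.8% of all genes. These 3 entries were Ppargc1a of the brown adipocyte list and Comp, which stood in both the tendon and the cartilage list. The summed thyrocyte genes ranged 1.19-fold between libraries, the C cell genes 2.49-fold, and the peripheral nerve genes 1.94-fold. Tg made up most of the thyrocyte sum, and some genes of that list ranged more, such as Slc5a5 (2.19-fold) and Dio1 (1.84-fold). The parathyroid genes, led by Pth, ranged 12.03-fold, from 641.8 CPM in 4m4Gy replicate 2 to 7720 CPM in 4m4Gy replicate 1. The brown adipocyte genes ranged 3.58-fold, and the white adipocyte genes 3.27-fold.

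**Figure D4:**
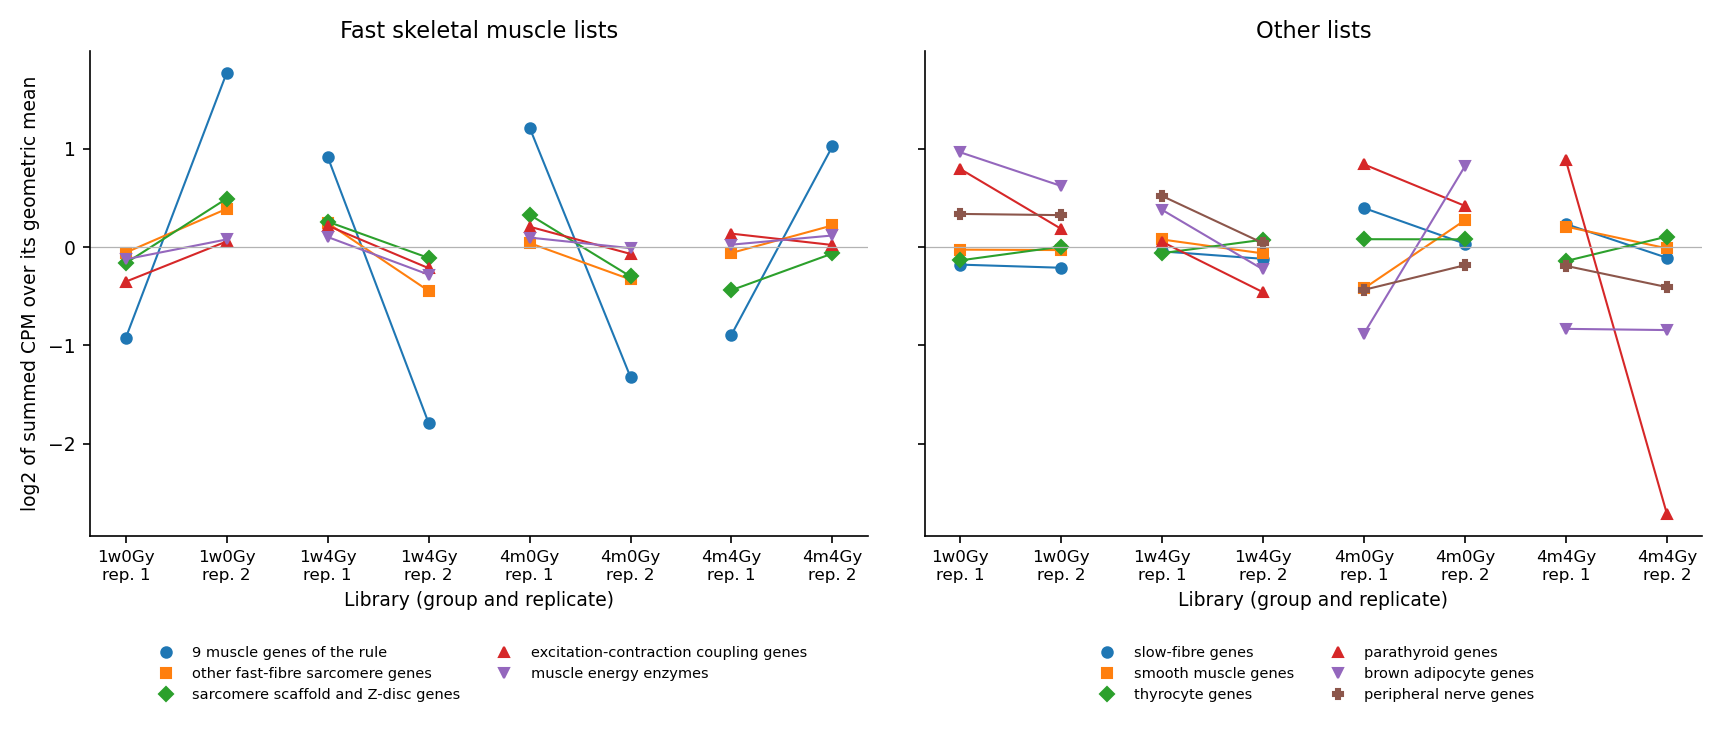
Summed CPM of each gene list in the 8 libraries, as log2 of its ratio to the geometric mean of that list over the libraries. Left, the 9 muscle genes and 4 further fast muscle lists; right, lists of other cell types. The sums of the 9 muscle genes span 11.8-fold and those of the other fast muscle lists 1.32-fold to 1.91-fold. Abundant genes of small range, such as Mybpc2 (1.53-fold) and Pfkm (1.31-fold), weigh most in their sums. Single genes of these lists ranged more widely, such as Pgam2 at 17.3-fold from a lowest value of 2 counts. The low point on the right is the parathyroid list in 4m4Gy replicate 2.

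Likeness was measured as Pearson's r over the 8 libraries between log2 CPM of a gene and the mean of the muscle genes, as a description. Against the mean of the other muscle genes, r ran from 0.717 for Myh2 to 0.993 for Tnni2. Among 14351 genes outside the muscle lists, 12 genes (0.0836%) had r of at least 0.9. The most alike was AABR07005775.1 (r = 0.971), whose description in the table is that of the fast sarcoplasmic calcium pump, Atp2a1. Atp2a1 had no row under its own symbol.

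AABR07005775.1 had 2.10 and 27.6 CPM in 1w0Gy, 14.5 and 1.24 CPM in 1w4Gy, 19.96 and 2.76 CPM in 4m0Gy, and 4.71 and 19.6 CPM in 4m4Gy. Its 22.3-fold range was like that of the muscle genes. The next genes in likeness were Kctd11, Psmb7, AABR07011698.1, ENSRNOG00000070561, Mrpl55, Prmt6, Mmadhc, Ankrd23, and Tsn, and their levels ranged only 1.08-fold (Tsn) to 2.06-fold (Ankrd23). The r value does not measure the size of a difference, and genes of small range had high values as well.

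The rows of Myh4 did not hold the same reads. ENSRNOT00000004295, the row used above, and ENSRNOT00000085582 had identical counts. ENSRNOT00000082871 had 17 and 106 counts in 1w0Gy and 83 and 7 counts in 1w4Gy, and at 4 months 95 and 9 counts in 4m0Gy and 53 and 112 counts in 4m4Gy. ENSRNOT00000045718 had 13 and 34 counts in 1w0Gy and 62 and 9 counts in 1w4Gy, and at 4 months 1 and 0 counts in 4m0Gy and 56 and 66 counts in 4m4Gy. This row was the only one of the 4 with both libraries of 4m4Gy above both of 4m0Gy. In the RefSeq annotation of GRCr8, Myh2, Myh1, and Myh4 are neighbours, and the table does not say which of their reads each row received.

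**Figure D5:**
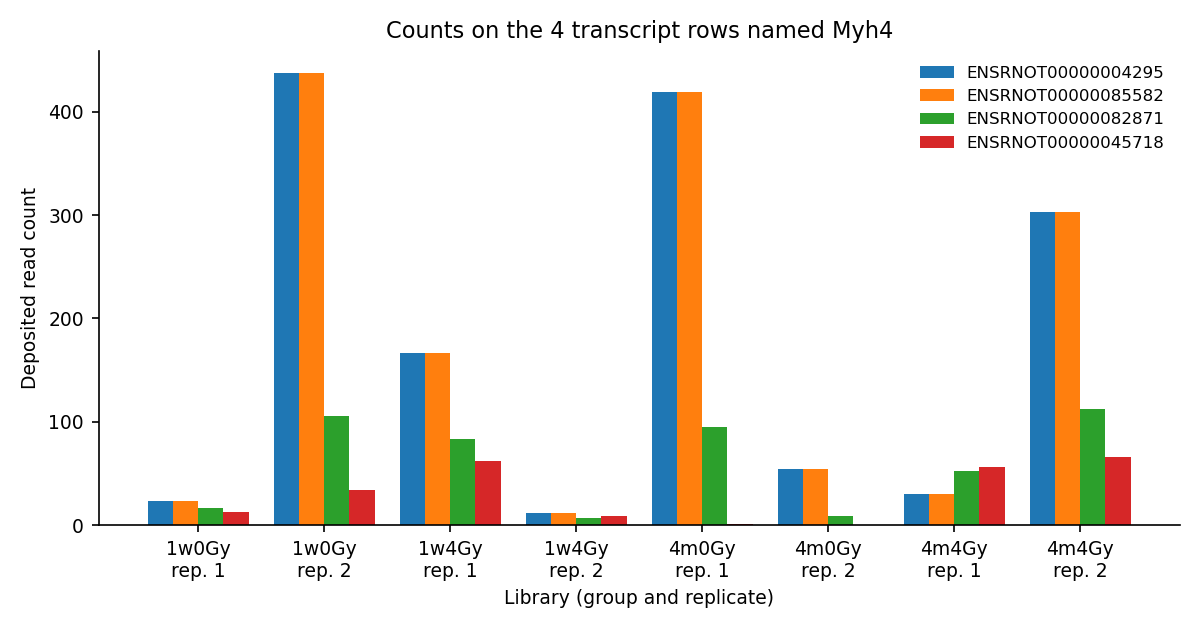
Deposited read counts on the 4 transcript rows named Myh4 in each library, without replicate error bars since each bar is a library. ENSRNOT00000004295 and ENSRNOT00000085582 reach 437 counts in 1w0Gy replicate 2, and ENSRNOT00000045718 has 1 and 0 counts in 4m0Gy beside 56 and 66 in 4m4Gy.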

How the data were processed

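Total RNA of thyroid tissue was sequenced as directional paired reads. Per the submitters' processing notes, the authors used HISAT2 2.2.1 and featureCounts 2.0.0. The genome build, and the handling of reads that fit several places, are not given in the sources used here. The authors deposited a table of 54991 transcripts with their raw counts, RPKM, and TPM. Raw counts were used for every test, deposited TPM for an alternative level, and deposited RPKM for nothing further.

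The row with the highest summed count stood for each gene. Among 9290 genes of 100 or more counts and several rows, 74.5% had a second row within 5% of the first. Counts were tested in R 4.3.3 with edgeR 4.0.16 (TMM, filterByExpr, glmQLFit with the robust option, glmQLFTest, Benjamini-Hochberg adjustment over all genes). The design did not state the robust option, and it was taken up after the default fit had been seen. Irradiation at each age was fitted on its own 4 libraries and called at an adjusted p under 0.05 with a fold above 1.5 or under 0.5. The other comparisons used 8 libraries and the adjusted p alone. The standard error was the log2 fold change divided by the root of the F value. Log2 CPM used a prior count of 2. DESeq2 1.42.0, other scalings, filters, transcript choices, a replicate block, and leaving out each library were alternatives, and the scripts were tested on simulated data.

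Counts of the 2 libraries of a group differed by more than sampling noise (chi-square per degree of freedom 7.97 to 16.2). In each comparison the p-values set a difference against the spread between libraries that the fit leaves unexplained. Each library came from a different rat, so differences between rats, in dissection, and in library preparation cannot be told apart in that spread. The members and gene lists were chosen with earlier results of these data known. Named are all members, up to 4 genes of highest mean CPM in each other list and those called, and the 10 genes most alike. Other genes were named after their values were seen, among them list genes given as examples of the replicate order. Genes with no row under their symbol were not analysed here.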

Additional observations from a re-analysis of the deposited data

Results flagged for a closer look

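The row ENSRNOT00000045718 of Myh4 was flagged because its signal lay outside the rows used for the comparisons and stood above the sham-irradiated libraries. Both libraries of 4m4Gy, at 56 and 66 counts, exceeded both libraries of 4m0Gy, at 1 and 0 counts. Summed over the 2 libraries, 122 counts stood against 1, a CPM ratio of 130 with an exact 95% counting interval of 22.9 to 5178. That interval covers counting error only and leaves out the spread between rats. When each transcript row was tested on its own, a choice made after seeing the data, edgeR gave an adjusted p of 0.0114, and 8 of 34777 rows were called. The adjusted p was 0.0698 without the robust option, 0.0115 in DESeq2, and 0.00371 to 0.0509 when each library was left out, the largest being without 4m4Gy replicate 1. The row was not called at 1 week (log2 fold change 0.72, SE 0.98, edgeR adjusted p = 0.939), and the difference between the ages was not called (adjusted p = 0.342). The chosen Myh4 row, with 419 and 54 counts in 4m0Gy and 30 and 303 in 4m4Gy, did not share this split. How reads were divided among the neighbouring myosin genes was not tested.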

How the results depend on the processing

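On the transcript row chosen for each gene, its longest transcript, or its transcripts summed, no muscle gene was called under any alternative in any of the 5 comparisons, and the lowest adjusted p was 0.375. DESeq2 gave no adjusted p for 8 of 8 genes at 4 months, nor for 4 of 8 at 1 week, in the interaction, and over both ages, and could not call these. Their log2 fold changes kept their sign in all but 78 of 665 values, 77 of which left out 1 library. The other was Actn3 for age, at -0.041 in the sham-irradiated libraries alone. The replicate order was kept by 9 of 9 genes in deposited TPM and with transcripts summed.

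Counts of called genes over the whole table were 1 for irradiation at 1 week, 3 at 4 months, 0 for the interaction, 2 over both ages, and 669 for age. In that order DESeq2 gave 12, 6, 26, 11, and 1046. Without the filter on low counts, more genes were tested, and the interaction gave 6, irradiation at 1 week 2, and irradiation at 4 months 14. With transcripts summed they were 0 at 1 week and 0 at 4 months. With at least 10 counts in every sample 1 gene was called over both ages, and all 8 libraries in one fit gave 1 at 4 months. The sham-irradiated libraries alone gave 163 for age. Without the robust option, an alternative chosen after that default fit had been seen, they were 0 at 1 week, 0 at 4 months, and 1 over both ages. The cause of these moves was not tested unless stated.

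With the replicate number as a block, 11 genes were called at 1 week and 12 at 4 months, and no muscle gene. The replicate number is only a number here. Replicate differences correlated at 0.12 between 1w0Gy and 1w4Gy, 0.12 between 4m0Gy and 4m4Gy, and -0.23 between 1w0Gy and 4m0Gy. For the other 3 pairs of groups the correlations were 0.02 to 0.15. The block changed no call of a muscle gene.

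Each library was then left out in turn, with the filter applied anew, so that Myh2 could enter the median of the muscle genes. For irradiation at 1 week the count ran from 2 to 45 called genes, the median log2 fold change of the muscle genes from -3.31 to 0.84, Acta1 from -3.27 to 1.15, Ckm from -3.35 to 1.76, Mb from -3.81 to 0.29, Myh4 from -4.14 to 2.09, Tnnt3 from -1.31 to 0.31, Tnni2 from -2.15 to 0.84, Mylpf from -3.39 to 0.60, and Actn3 from -0.76 to 0.47. For irradiation at 4 months the count ran from 3 to 52 called genes, the median log2 fold change of the muscle genes from -0.85 to 1.61, Acta1 from -0.90 to 1.45, Ckm from -0.82 to 3.11, Mb from -2.44 to 2.72, Myh4 from -2.92 to 1.77, Tnnt3 from -0.59 to 1.12, Tnni2 from -0.82 to 1.46, Mylpf from -0.89 to 1.86, and Actn3 from -0.15 to 1.13. For the interaction the count ran from 0 to 22 called genes, the median log2 fold change of the muscle genes from -0.83 to 3.31, Acta1 from -1.10 to 3.33, Ckm from -1.45 to 3.67, Mb from -0.83 to 4.47, Myh4 from -2.57 to 3.67, Tnnt3 from -0.057 to 1.75, Tnni2 from -0.82 to 2.19, Mylpf from -0.38 to 3.63, and Actn3 from -0.082 to 1.24. For irradiation over both ages the count ran from 1 to 5 called genes, the median log2 fold change of the muscle genes from -0.78 to 0.37, Acta1 from -0.96 to 0.45, Ckm from -0.70 to 0.79, Mb from -1.92 to -0.24, Myh4 from -1.77 to 0.21, Tnnt3 from -0.61 to 0.27, Tnni2 from -0.69 to 0.34, Mylpf from -0.98 to 0.37, and Actn3 from -0.10 to 0.47. For age the count ran from 292 to 666 called genes, the median log2 fold change of the muscle genes from -0.80 to 0.41, Acta1 from -0.93 to 0.41, Ckm from -0.79 to 0.66, Mb from -1.03 to 0.66, Myh4 from -0.26 to 1.75, Tnnt3 from -1.03 to -0.15, Tnni2 from -0.78 to 0.15, Mylpf from -1.13 to 0.22, and Actn3 from -0.067 to 0.50. The cause of these moves was not tested.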

Other observations

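Myh8, the perinatal myosin heavy chain of developing muscle, had 29 counts in 1w0Gy replicate 1 and at most 1 count in each of the other 7 libraries. The summed level of the 9 adult muscle genes in that library was 16.1 CPM. Myh3, the embryonic myosin heavy chain, had at most 1 count in any library.

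In the age comparison edgeR called 11 (13.6%) of the 81 genes tested from the lists outside fast muscle, against 4.27% of the 15684 genes. These lists were chosen with results of these data known, and the shares are a description. Higher at 4 months were Calca, the calcitonin gene of C cells (log2 fold change 1.19, SE 0.22, adjusted p = 0.0262), and Slc4a1, the anion exchanger of red blood cells (0.99, SE 0.17, adjusted p = 0.00961). Lower at 4 months were the adipocyte genes Lpl, Adipoq, and Retn, the deiodinase Dio2, the keratins Krt5 and Krt13, the globin Hba-a2, the myelin gene Pmp22, and the thyrotropin receptor Tshr. The largest fall among the called genes was that of Krt13, which decreased by 2.05 on the log2 scale (SE 0.45, adjusted p = 0.0393). The called genes do not stand for their whole lists. Above 0 were 4 of 7 C cell genes, 2 of 4 red blood cell genes, 1 of 4 squamous epithelium genes, and 8 of 11 thyrocyte genes. Of the brown adipocyte genes 1 of 7 was above 0, and of the white adipocyte and the peripheral nerve genes 0 of 8 each.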
